A study of Homo sapiens with 16 samples.

Results

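The gemcitabine response of PANC1 cells was compared with that of MiaPaCa2 cells, as the change with gemcitabine in PANC1 minus the change in MiaPaCa2. The comparison used 8 of the 16 libraries, chosen by their labels: 2 untreated and 2 gemcitabine-treated libraries of each line. Both lines are established human pancreatic carcinoma lines and were grown in DMEM with 10% serum. They received gemcitabine at 40 nM for 24 hours, and the untreated control cells were taken at the same time point. The other 8 libraries were both lines with 50 µM genistein for the same time, alone or with gemcitabine, and they served as separate libraries in which the same difference was measured again. Polyadenylated RNA was sequenced and counted per gene. Each line stands for 1 genetic background, so what is said of PANC1 or MiaPaCa2 holds for that line.

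Gemcitabine is a deoxycytidine analogue that is phosphorylated inside the cell, is built into DNA and halts the replication fork, and in its diphosphate form inhibits ribonucleotide reductase, the enzyme that supplies deoxynucleotides. Stalled forks activate the ATR and CHK1 checkpoint kinases and, through p53 and stress-activated kinases, genes for cell cycle arrest, repair and stress. Both lines are known to carry mutant p53.

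The 8 libraries held 13445125 to 31991860 counted reads. KRT8, KRT18 and KRT19, the simple epithelial keratins, were well expressed in both lines, whereas EPCAM was at 0 counts and CDH1 at 0 to 2 counts in the MiaPaCa2 libraries. The leukocyte markers summed to 0 to 1 CPM (counts scaled to the TMM-normalized library size) in each library, with PTPRC at 1 count at most. The endothelial markers summed to 5 to 8 CPM in MiaPaCa2, nearly all of it CDH5, and to 0 to 1 CPM in PANC1, with PECAM1 at 0. The fibroblast markers summed to 237 to 386 CPM in all 8 libraries, which was almost wholly the collagen gene COL1A2 in MiaPaCa2 and COL1A1 in PANC1, while DCN was at 0. PRSS1, an acinar marker, was at 0 in all 8. Of the marker lists, 6 of 6 epithelial, 1 of 6 leukocyte, 2 of 5 endothelial, 4 of 6 fibroblast and 0 of 7 acinar and endocrine genes passed the filter on low counts, and 2 of them differed between the responses, KDR and COL3A1. The part of these markers in the results was not tested. The study's methods call the 2 libraries of each condition biological replicates. The p-values rest on the spread between replicates pooled over all 16 libraries, those with genistein included.

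In MiaPaCa2, CDKN1A, TGFA and FN1 rose and the splicing factors SRSF1 and HNRNPH1 fell, while in PANC1 these 5 genes did not pass the test. EGR1, DDIT3, BTG2 and JUN rose in PANC1, each with a higher response than in MiaPaCa2. EGR1 rose in MiaPaCa2 too, BTG2 did not pass the test there, and the MiaPaCa2 levels of DDIT3 and JUN are given below. Of 17863 genes tested, the responses differed for 2728 (15.3%) by limma-voom with Benjamini-Hochberg adjustment at an adjusted p of at most 0.05. The response was higher in PANC1 for 1110 genes (6.21%) and lower for 1618 (9.06%). Here "higher" means that the log2 fold change in PANC1 exceeded that in MiaPaCa2, whatever the sign of either. The difference was at least 1 on the log2 scale in 1307 of the 2728. Among them, 1381 (50.6%) were called in MiaPaCa2 and not in PANC1, 734 (26.9%) in PANC1 and not in MiaPaCa2, 117 in both with the same sign and 257 in neither. A further 239 (8.8%) changed in opposite directions in the lines. Within the lines, gemcitabine changed 4419 genes (24.7%) in MiaPaCa2, of which 2628 rose (14.7%) and 1791 fell (10.0%), and 3142 genes (17.6%) in PANC1, of which 1539 rose (8.62%) and 1603 fell (8.97%). The count of different responses depended on single libraries and ran from 898 without MiaPaCa2 control 1 to 5434 without PANC1 control 2.

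**Figure D1:**
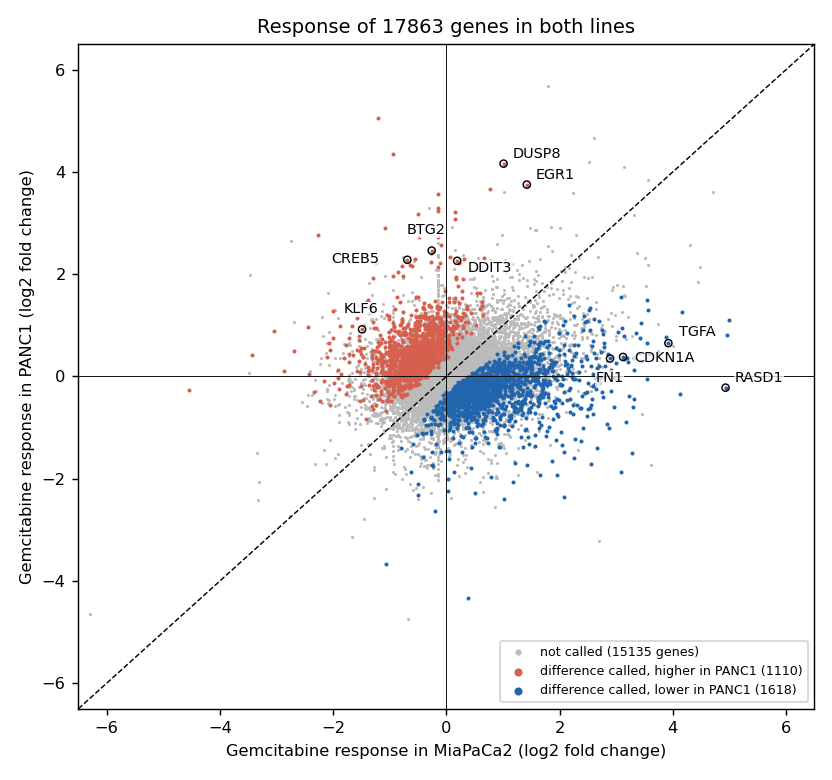
Each point is 1 of the 17863 genes tested, with its log2 fold change under gemcitabine in MiaPaCa2 (horizontal axis) and in PANC1 (vertical axis); red points are the 1110 genes with a higher and blue points the 1618 genes with a lower response in PANC1, and the dashed line marks equal responses. DUSP8 and EGR1 sit high above the line, and RASD1, TGFA and CDKN1A far to its right.

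The difference moved with base composition. Genes with a higher response in PANC1 had a median transcript GC content of 42.8% and those with a lower response 54.5%, against 48.9% for all genes tested. In the plot of response by GC content the median difference went from 0.55 in genes of 35 to 40% GC to -0.55 in genes of 60 to 65%. The level of a gene relative to its mean in the line sloped with GC by -0.24 and -0.14 (log2 per 10 points of GC) in the MiaPaCa2 controls, 0.15 and 0.06 in MiaPaCa2 with gemcitabine, 0.30 and -0.08 in the PANC1 controls and 0.05 and -0.13 in PANC1 with gemcitabine. The PANC1 controls thus lay on both sides of 0. Their counts also differed more than those of the 2 replicates in any other group. Their chi-square per degree of freedom was 35.8, against 2.86 to 21.6 elsewhere, a measure that grows with depth. PANC1 control 2 was the deepest library, at 31991860 counted reads. After the GC trend of each library was removed, 4768 of 17488 genes differed (27.3%), 2202 higher (12.6%) and 2566 lower (14.7%), and 2420 of the 2728 genes (88.7%) were called with the same sign. For the gene lists below, the number of members called for the difference is followed by its value after this correction. Over all genes the calls rose too, from 6.21% higher and 9.06% lower to 12.6% and 14.7%. A rise in a list's count is thus not by itself particular to that list. Counts with 1 library left out also moved over all genes. Counts within a line are given without the correction.

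**Figure D2:**
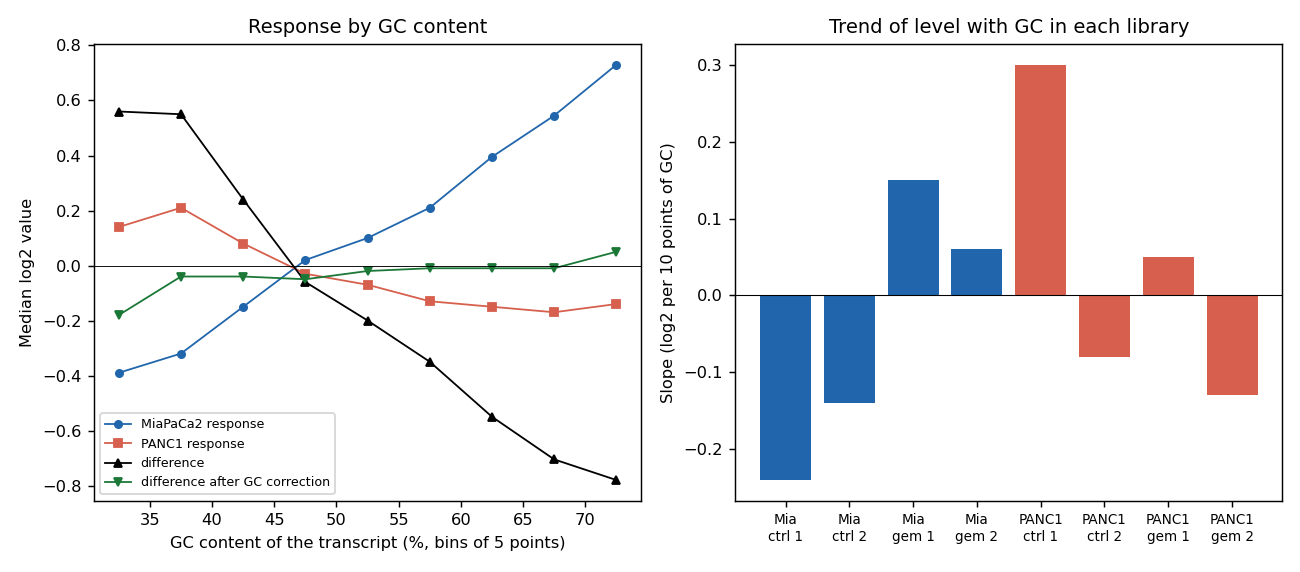
Left, median log2 response in MiaPaCa2 (blue circles) and PANC1 (red squares), their difference (black) and the difference after GC correction (green) for genes in bins of 5 points of transcript GC content. Right, bars give the slope of level against GC in each of the 8 libraries, in log2 per 10 points of GC, with MiaPaCa2 in blue and PANC1 in red; the slope of PANC1 control 1 was 0.30 and that of PANC1 control 2 was -0.08.

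Among genes of the immediate early response, more had a higher than a lower response in PANC1. They encode transcription factors and regulators that are switched on within minutes of growth factor or stress signals. Of 37 tested members of the list of EGR, NR4A, IER and KLF genes, 12 had a higher and 4 a lower response in PANC1, and 15 and 6 after GC correction; the 12 became 8 without MiaPaCa2 control 1 or MiaPaCa2 gemcitabine 2, and the 4 became 2 without any 1 of 6 libraries. The median response of the list was 0.16 in MiaPaCa2 and 0.57 in PANC1, and the median difference 0.07, against -0.08 for all genes. In MiaPaCa2, 17 members rose and 4 fell. In PANC1, 18 rose and 0 fell.

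KLF6 (chr10:3818188-3827473 in GRCh37), a zinc-finger transcription factor, went in opposite directions. It was at 187 and 181 CPM in the MiaPaCa2 controls and at 68.1 and 63 with gemcitabine, and at 155 and 169 in the PANC1 controls and 304 and 313 with gemcitabine. The controls of the lines were thus close, and the treated libraries lay on either side of them without overlap. It fell by 1.49 on the log2 scale in MiaPaCa2 and rose by 0.92 in PANC1, a difference of 2.41 ± 0.13 (SE; adjusted p = 1.62e-06 by limma-voom with Benjamini-Hochberg adjustment). SGK1 (chr6:134490386-134639250), a kinase downstream of PI3K and glucocorticoid signals, also went in opposite directions, from 573 and 550 to 291 and 324 CPM in MiaPaCa2 and from 4.81 and 4.94 to 14 and 14.8 CPM in PANC1. Its difference was 2.43 ± 0.19 (limma-voom adjusted p = 1.77e-05). The level in treated PANC1 stayed far under that in treated MiaPaCa2.

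EGR1 (chr5:137801168-137804992), the zinc-finger factor that growth factors induce through serum response factor, rose in both lines and more in PANC1. It went from 31.4 and 29.7 to 85.6 and 78 CPM in MiaPaCa2, and from 1.1 and 1.06 to 15.3 and 14.2 CPM in PANC1. All PANC1 libraries were below all MiaPaCa2 libraries, while the log2 fold change was 3.75 ± 0.22 in PANC1 against 1.42 ± 0.12 in MiaPaCa2, a difference of 2.33 ± 0.25 (limma-voom adjusted p = 0.000185). IER3 and IER5, early genes with roles in survival and stress, went the other way, with differences of -1.68 and -1.45 on the log2 scale (chosen after their values were seen).

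AP-1 factors are the JUN, FOS, ATF and MAF proteins that bind DNA as dimers, and 9 of 16 rose in MiaPaCa2 and 7 in PANC1, with 0 falling. Of the 16, 4 had a higher and 0 a lower response in PANC1 (3 without MiaPaCa2 control 1, and 9 and 1 after GC correction), with medians of 0.69 in MiaPaCa2 and 0.92 in PANC1. FOSL2 went from 67.5 and 65.6 to 80 and 83 CPM in MiaPaCa2 and from 40.2 and 35.6 to 147 and 134 CPM in PANC1, a difference of 1.61 ± 0.13 (limma-voom adjusted p = 3.45e-05). JUN reached 179 and 149 CPM in treated PANC1 against 58.6 and 46.3 in its controls, and 72.7 and 62.5 against 55.2 and 55.7 in MiaPaCa2, with a difference of 1.38 ± 0.28. ATF3, a stress-induced factor, rose from 2.68 and 1.61 to 7.74 and 10.1 CPM in MiaPaCa2 and from 6.92 and 5.63 to 96.5 and 99.6 CPM in PANC1, a difference of 1.95 ± 0.34 that was 1.59 and no longer called without MiaPaCa2 control 1. CREB5 is a cAMP-response-element binding factor of the same class of zipper proteins. Its difference, 2.97 ± 0.26 on the log2 scale, was among the 12 highest under the expression and overlap limits for named genes. CREB5 fell in MiaPaCa2 from 7.84 and 8.5 to 5.02 and 5.03 CPM and rose in PANC1 from 3.16 and 2.97 to 13.9 and 15.8 CPM.

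DUSP8 (chr11:1575281-1593501), a phosphatase that switches off the JNK and p38 kinases, had the largest difference among the genes of ERK and stress kinase feedback. It went from 1.55 and 1.22 to 28.2 and 21.4 CPM in PANC1 and from 2.01 and 1.69 to 4.78 and 2.96 CPM in MiaPaCa2, a difference of 3.15 ± 0.53 (limma-voom adjusted p = 0.00286). DUSP16, which acts on the same kinases, differed by 1.53, and SPRY2, an inhibitor of receptor tyrosine kinase signals, by 0.90, because it fell by 0.86 in MiaPaCa2 and was at 0.04 in PANC1. Of 29 tested members of this list, 5 were higher (4 without MiaPaCa2 control 1 or either gemcitabine-treated PANC1 library) and 4 lower (1 without MiaPaCa2 control 1, 8 without PANC1 control 2), and 9 and 3 after GC correction. The medians lay at -0.01 and 0.03.

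The upstream sequences of EGR1 and DUSP8 are shown because these genes had high responses in PANC1 and because their promoters hold well-known letters. Each run is the 250 bases before the gene's start in RefSeq on GRCh38.p14, from the 5′ end, with the motif in capitals. For EGR1 (chr5:138465229-138465478, plus strand) the capitals mark the CArG boxes to which serum response factor binds, and for DUSP8 (chr11:1572272-1572521, minus strand) the cAMP response element TGACGTCA.
EGR1: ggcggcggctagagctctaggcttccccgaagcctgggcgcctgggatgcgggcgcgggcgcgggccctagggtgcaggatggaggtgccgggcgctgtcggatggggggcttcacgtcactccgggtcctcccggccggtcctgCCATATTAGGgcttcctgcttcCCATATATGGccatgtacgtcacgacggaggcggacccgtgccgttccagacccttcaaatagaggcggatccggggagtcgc
DUSP8: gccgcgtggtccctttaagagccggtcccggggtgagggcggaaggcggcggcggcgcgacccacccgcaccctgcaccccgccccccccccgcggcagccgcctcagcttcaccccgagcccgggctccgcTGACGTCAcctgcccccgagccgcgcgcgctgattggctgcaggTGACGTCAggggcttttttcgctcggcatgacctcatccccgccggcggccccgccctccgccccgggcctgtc
Both strands were searched. A CArG box stood in 1.14% of the 27305 promoters of the table and in 2 of 30 matched promoters of the early-gene list (6.67%), and TGACGTCA in 1.77% of all and in 3 of 24 matched promoters of the ERK feedback list that holds DUSP8 (12.5%). TGACGTCA also stood in 18.2% of AP-1, 9.38% of mitosis and 7.69% of replication promoters. A CArG box also stood in 6.25% of interferon-stimulated, 4.84% of ribosomal protein and 4.65% of integrin, laminin and collagen promoters. It stood in 0 of the mitosis and replication promoters. A match is a description of letters, and binding was not measured.

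p53 target genes split between the lines, with different members rising in each. Of 33 tested, 6 had a lower and 4 a higher response in PANC1 (10 and 8 after GC correction), and the medians were alike at 0.28 in MiaPaCa2 and 0.18 in PANC1. The 6 became 3 without MiaPaCa2 control 2 or either second gemcitabine-treated library, while the 4 held at 4 in 7 of the 8 fits that left out 1 library and became 7 without PANC1 control 2. In MiaPaCa2, 13 rose and 1 fell, and in PANC1, 8 rose and 0 fell.

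CDKN1A (chr6:36644237-36655114), which encodes the cyclin-dependent kinase inhibitor p21, rose from 6.14 and 5.67 to 50 and 53.7 CPM in MiaPaCa2. In PANC1 it was already at 148 and 110 CPM in the controls and at 173 and 156 CPM with gemcitabine. MiaPaCa2 with the drug therefore stayed below untreated PANC1. The difference in response was -2.75 ± 0.27 (limma-voom adjusted p = 9.31e-05). CDKN1C, which encodes the related inhibitor p57 and is not in the p53 target list, also rose in MiaPaCa2. It went from 0.547 and 0.919 to 3.81 and 4.47 CPM there, within the range of the PANC1 controls at 5.47 and 3.38 CPM. Both treated PANC1 libraries were at 2.65 CPM, below the controls, and the difference was -3.15 ± 0.59.

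BTG2, GADD45A and AEN rose in PANC1 and did not pass the test in MiaPaCa2. BTG2 (chr1:203274619-203278730), an antiproliferative regulator of mRNA decay, went from 3.56 and 2.85 to 17.9 and 16.7 CPM in PANC1 and was at 212 and 238 CPM in MiaPaCa2 controls against 181 and 195 CPM with gemcitabine. Its difference was 2.71 ± 0.23 (limma-voom adjusted p = 3.42e-05). GADD45A, a stress protein that binds PCNA, rose from 30.4 and 32 to 125.2 and 108.6 CPM in PANC1, while MiaPaCa2 held 16.2 and 14.8 CPM in controls and 19.5 and 15.6 CPM with the drug. AEN, an apoptosis-enhancing nuclease, rose from 78.7 and 64.9 to 183 and 172 CPM in PANC1, with 51.9 to 58.4 CPM across the 4 MiaPaCa2 libraries. The differences were 1.72 ± 0.20 and 1.45 ± 0.16.

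**Figure D3:**
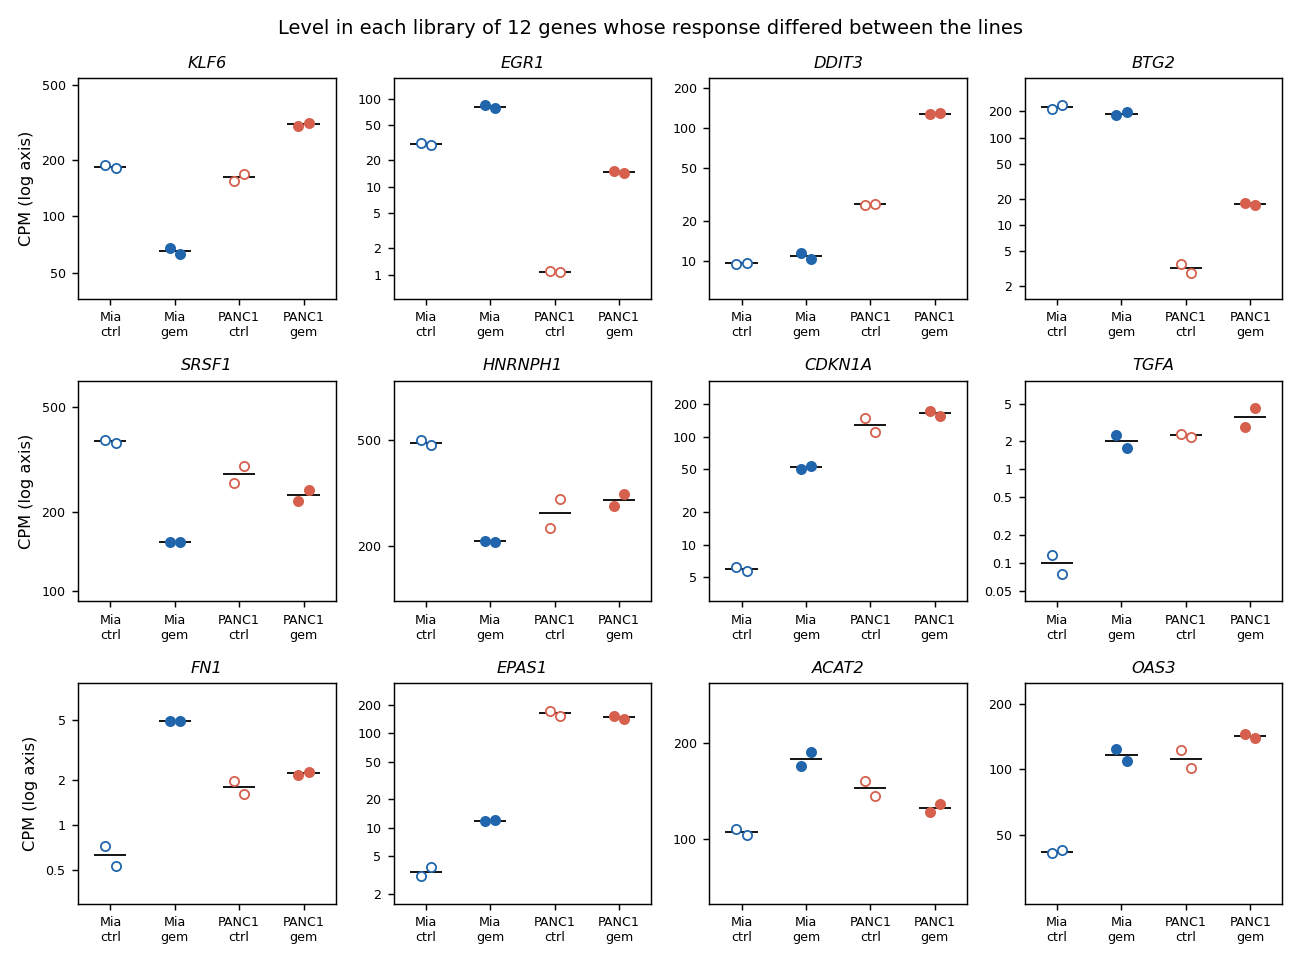
Level of 12 genes in each of the 8 libraries, in CPM on a log axis, with open circles for controls, filled circles for gemcitabine, blue for MiaPaCa2 and red for PANC1; black lines are the means of 2 libraries. KLF6 falls in MiaPaCa2 and rises in PANC1, DDIT3 and BTG2 rise in PANC1, and CDKN1A, TGFA, FN1 and EPAS1 rise in MiaPaCa2.

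In the integrated stress response, phosphorylation of the initiation factor eIF2 slows translation and favours that of ATF4. More of its genes had a higher than a lower response in PANC1, and more fell than rose in MiaPaCa2. Of 46 tested members, 15 had a higher and 1 a lower response in PANC1, and 26 and 4 after GC correction. The 15 became 6 without MiaPaCa2 control 1 and 16 without PANC1 control 1. The medians were -0.16 in MiaPaCa2 and 0.04 in PANC1, with 16 members falling and 7 rising in MiaPaCa2 and 4 falling and 7 rising in PANC1. DDIT3 (chr12:57910371-57915520), the pro-apoptotic factor CHOP, rose from 26.5 and 27.1 to 127 and 130 CPM in PANC1 and was at 9.49 and 9.73 CPM in MiaPaCa2 controls against 11.6 and 10.4 CPM with gemcitabine. Its difference of 2.07 ± 0.17 (limma-voom adjusted p = 3.42e-05) concerns a gene of whose exons 27.2% overlap MARS1 on the other strand.

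ATF4, the central factor of this response, fell in MiaPaCa2 from 132 and 128 to 72.9 and 78.9 CPM and was at 164 and 134 CPM in the PANC1 controls and 171 and 169 CPM with gemcitabine. The PANC1 groups did not overlap, but their change of 0.21 did not pass the test, and the difference was 0.99 ± 0.14 (limma-voom adjusted p = 0.000842). CEBPG, a partner of ATF4, differed by 0.91. With genistein present the difference in ATF4 was 0.41 and was not called. In the list of ER chaperones and the unfolded protein response, 6 of 30 members had a lower and 1 a higher response in PANC1 (11 and 1 after GC correction, and 0 lower without any 1 of 3 libraries, MiaPaCa2 control 1, MiaPaCa2 control 2 or PANC1 gemcitabine 2). XBP1, a transcription factor of the unfolded protein response, was the 1 higher gene, at 0.64, and the chaperone CALR was at -0.48.

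Many splicing regulators fell in MiaPaCa2. SR proteins and hnRNPs bind pre-mRNA and set which exons are kept. Of 37 tested, 21 had a higher and 1 a lower response in PANC1, the highest share of any of the 32 lists, and 21 and 0 after GC correction. Without PANC1 gemcitabine 2 the 21 became 7, and without PANC1 control 2 they became 24. In MiaPaCa2, 25 fell and 0 rose, with a median of -0.54. In PANC1, 6 fell and 2 rose, with a median of -0.05. The median difference was 0.59, or 0.34 after GC correction.

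SRSF1 (chr17:56078280-56084707), the founding SR protein, went from 376 and 366 to 153 and 154 CPM in MiaPaCa2 and from 257 and 298 to 220 and 243 CPM in PANC1. It fell by 1.27 on the log2 scale in MiaPaCa2, where the groups were far apart, while in PANC1 its change of -0.26 did not pass the test. The difference was 1.01 ± 0.13 (limma-voom adjusted p = 0.00056), for a gene that shares 32.7% of its exon length with another annotated transcript unit on the same strand. SRSF7 went from 247 and 255 to 132 and 131 CPM in MiaPaCa2 and from 184 and 192 to 210 and 221 CPM in PANC1. HNRNPH1, which binds G-rich runs, went from 498 and 478 to 209 and 207 CPM in MiaPaCa2, against 233 and 300 CPM in PANC1 controls and 282 and 312 CPM with gemcitabine. The 2 differences were 1.12 ± 0.12 and 1.39 ± 0.18. SRSF3 differed by 0.82 ± 0.12.

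Many genes of DNA replication rose in both lines, and some of them further in PANC1. In the list of replication licensing and fork genes, 23 of 46 rose and 2 fell in MiaPaCa2, and 36 rose and 0 fell in PANC1, with medians of 0.36 and 0.65. The response was higher in PANC1 for 12 and lower for 1 (20 and 4 after GC correction). The 12 became 3 without MiaPaCa2 control 1 and 17 without PANC1 control 2. In bulk RNA, a larger share of cells in S phase and more RNA per cell cannot be told apart. POLD3, a subunit of the lagging-strand polymerase, rose from 61.3 and 66.6 to 141 and 152 CPM in PANC1 and was at 48.3 and 48.5 CPM in MiaPaCa2 controls against 55.8 and 54 CPM with the drug, a difference of 1.01 ± 0.14 (limma-voom adjusted p = 0.000794). CDC6, which loads the replicative helicase, rose in both lines, from 145 and 139 to 205 and 227 CPM in MiaPaCa2 and from 118.3 and 115.1 to 280 and 299 CPM in PANC1, a difference of 0.71 ± 0.11. RFC3, part of the clamp loader, went in opposite directions and fell from 136 and 130 to 91 and 97.6 CPM in MiaPaCa2 and rose from 28.9 and 42 to 62.9 and 73.7 CPM in PANC1, a difference of 1.44 ± 0.24.

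Among repair and checkpoint genes, too, more responses were higher than lower in PANC1. In homologous recombination and the Fanconi pathway, 7 of 32 were higher in PANC1 and 1 lower (11 and 3 after GC correction, and 2 higher without MiaPaCa2 control 1 or MiaPaCa2 gemcitabine 1 and 13 without PANC1 control 2), with medians of 0.15 and 0.57. BARD1, the partner of BRCA1, rose from 13.6 and 18.8 to 35.4 and 37.1 CPM in PANC1 and held 18.6 to 22.4 CPM in the MiaPaCa2 libraries, a difference of 1.31 ± 0.22. Among checkpoint kinases and adaptors 5 of 21 were higher and 1 lower (9 and 3 after GC correction, and 2 higher without MiaPaCa2 gemcitabine 1 and 11 without PANC1 control 2). DTL, the adaptor that sends CDT1 and p21 for degradation, rose in both lines, from 155 and 148 to 219 and 221 CPM in MiaPaCa2 and from 89.1 and 99.1 to 282 and 303 CPM in PANC1, a difference of 1.09 ± 0.13 (limma-voom adjusted p = 0.00036). The call for WEE1, the kinase that restrains CDK1, at 0.77, was lost after GC correction, at 0.38 with a limma-voom adjusted p of 0.0756.

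In the lists of G1/S regulators and nucleotide supply, 4 of 29 and 4 of 26 were higher and 3 and 0 lower (8 and 6 higher, 5 and 0 lower after GC correction). Without PANC1 gemcitabine 2 the first 4 became 1, and without MiaPaCa2 control 1 the second became 0. E2F8, an atypical E2F that represses E2F targets, rose from 18.6 and 21.3 to 56.4 and 60.4 CPM in PANC1 and held 16.6 to 20.9 CPM in MiaPaCa2, a difference of 1.26 ± 0.22. DHODH, which makes the pyrimidine orotate, differed by 0.87.

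Many mitotic genes fell in both lines. In MiaPaCa2, 32 of 77 fell and 6 rose, and in PANC1, 20 fell and 7 rose. The response was higher in PANC1 for 8 and lower for 8 (17 and 12 after GC correction), and the 8 higher ones became 0 without any 1 of 5 libraries (each MiaPaCa2 library and PANC1 gemcitabine 2) and 36 without PANC1 control 2. The 8 lower ones became 3 without any 1 of 5 libraries and 14 without PANC1 control 2, and a replicate block left 0 higher and 3 lower. KIF20A, a kinesin of cytokinesis, fell more in PANC1, from 171 and 153 to 72 and 74.5 CPM, than in MiaPaCa2, from 395 and 379 to 265 and 275 CPM, a difference of -0.62 ± 0.11 (limma-voom adjusted p = 0.00438). PTTG1, the securin, fell from 165 and 144 to 96.4 and 99.2 CPM in PANC1 and stood at 205 to 230 CPM in MiaPaCa2. Replication-dependent histones, whose main transcripts carry no poly(A) tail and are poorly captured by this selection, had medians of -0.39 and -0.88, with 5 of 19 lower in PANC1 and 0 higher (4 after GC correction, and 1 without any 1 of 5 libraries), among them HIST1H2BD at -1.45.

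A share of the extracellular matrix genes rose in MiaPaCa2, while growth factor and receptor genes rose and fell there in similar numbers. In the list of EGFR family receptors and ligands 5 of 16 rose and 4 fell in MiaPaCa2. In the TGF-beta pathway 10 of 44 rose and 8 fell. Among integrins, laminins and collagens, 12 of 57 rose and 3 fell in MiaPaCa2, 2 rose and 16 fell in PANC1, and the response was lower in PANC1 for 14 and higher for 0 (20 and 1 after GC correction). The 14 became 3 without MiaPaCa2 control 2 and 25 without PANC1 control 2. The medians were 0.20 and -0.25, with a median difference of -0.57, or -0.24 after GC correction. FN1 (chr2:216225163-216300796) encodes fibronectin, a matrix protein that is neither an integrin, a laminin nor a collagen. It rose from 0.73 and 0.536 to 4.9 and 4.91 CPM in MiaPaCa2. In PANC1 it was at 1.96 and 1.6 CPM in controls against 2.16 and 2.27 CPM with the drug. The difference was -2.53 ± 0.46 (limma-voom adjusted p = 0.00402). ITGB3, an integrin subunit that binds fibronectin and vitronectin, rose from 0.243 and 0.383 to 1.87 and 1.76 CPM in MiaPaCa2 and from 11.5 and 10.1 to 13.3 and 14.8 CPM in PANC1, a difference of -2.07 ± 0.36. It shares 33.2% of its exon length with a read-through unit on the same strand. ITGB5 rose in MiaPaCa2 and fell in PANC1, by -0.97 ± 0.18 in difference.

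TGFA (chr2:70674416-70781325), a ligand of the EGF receptor, was close to absent in the MiaPaCa2 controls, at 0.122 and 0.0766 CPM, and at 2.3 and 1.7 CPM with gemcitabine. The MiaPaCa2 controls held 3 counts in all, and the treated libraries 65, a ratio of 19.7 with an exact 95% interval of 6.45 to 98 that covers counting error only. PANC1 held 2.36 and 2.22 CPM in controls and 2.81 and 4.45 CPM with the drug, so that treated MiaPaCa2 reached about the level of untreated PANC1. The fitted difference was -3.27 ± 0.58 (limma-voom adjusted p = 0.00376). In this list of EGFR family receptors and ligands 3 of 16 were higher and 3 lower, as after GC correction (2 higher and 1 lower without PANC1 gemcitabine 2 or MiaPaCa2 gemcitabine 1, and 4 and 5 without PANC1 control 2), and EGFR itself differed by 0.64, having fallen by 0.54 in MiaPaCa2.

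In the TGF-beta pathway 7 of 44 were lower and 4 higher in PANC1 (13 and 5 after GC correction, 4 lower without MiaPaCa2 control 2 and 12 without PANC1 control 2). INHBB, the activin B subunit, rose from 0.426 and 0.919 to 3.87 and 3.71 CPM in MiaPaCa2 and was at 37.8 and 33.7 CPM in PANC1 controls against 24.8 and 27.4 CPM with gemcitabine, a difference of -3.01 ± 0.43 (limma-voom adjusted p = 0.000961). LTBP1, which holds latent TGF-beta in the matrix, rose from 10.9 and 9.27 to 19.8 and 23.6 CPM in MiaPaCa2 and held 67.6 to 74.5 CPM in PANC1. TGFB1, the ligand, rose from 15 and 16.3 to 42.6 and 37.7 CPM in MiaPaCa2, with 67.7 and 48.9 CPM in PANC1 controls and 64.4 and 53.3 CPM with the drug. Its difference of -1.32 ± 0.32 was no longer called without MiaPaCa2 gemcitabine 1, without either MiaPaCa2 control or without PANC1 gemcitabine 2, and was -0.76 after GC correction. SMAD3, which carries the signal to the nucleus, fell by 0.95 in PANC1 and differed by -0.81.

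JUP, the junction protein plakoglobin, went in opposite directions, from 19.6 and 25.8 to 54.4 and 49 CPM in MiaPaCa2 and from 382 and 267 to 186 and 159 CPM in PANC1, a difference of -2.09 ± 0.33. In its list of epithelial and mesenchymal identity 4 of 33 were lower and 2 higher (8 and 6 after GC correction; 2 lower without any 1 of 4 libraries, PANC1 control 1 among them). Of 30 targets of YAP, 3 were higher and 2 lower (9 and 2 after GC correction, and 0 and 0 without MiaPaCa2 control 1).

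**Figure D4:**
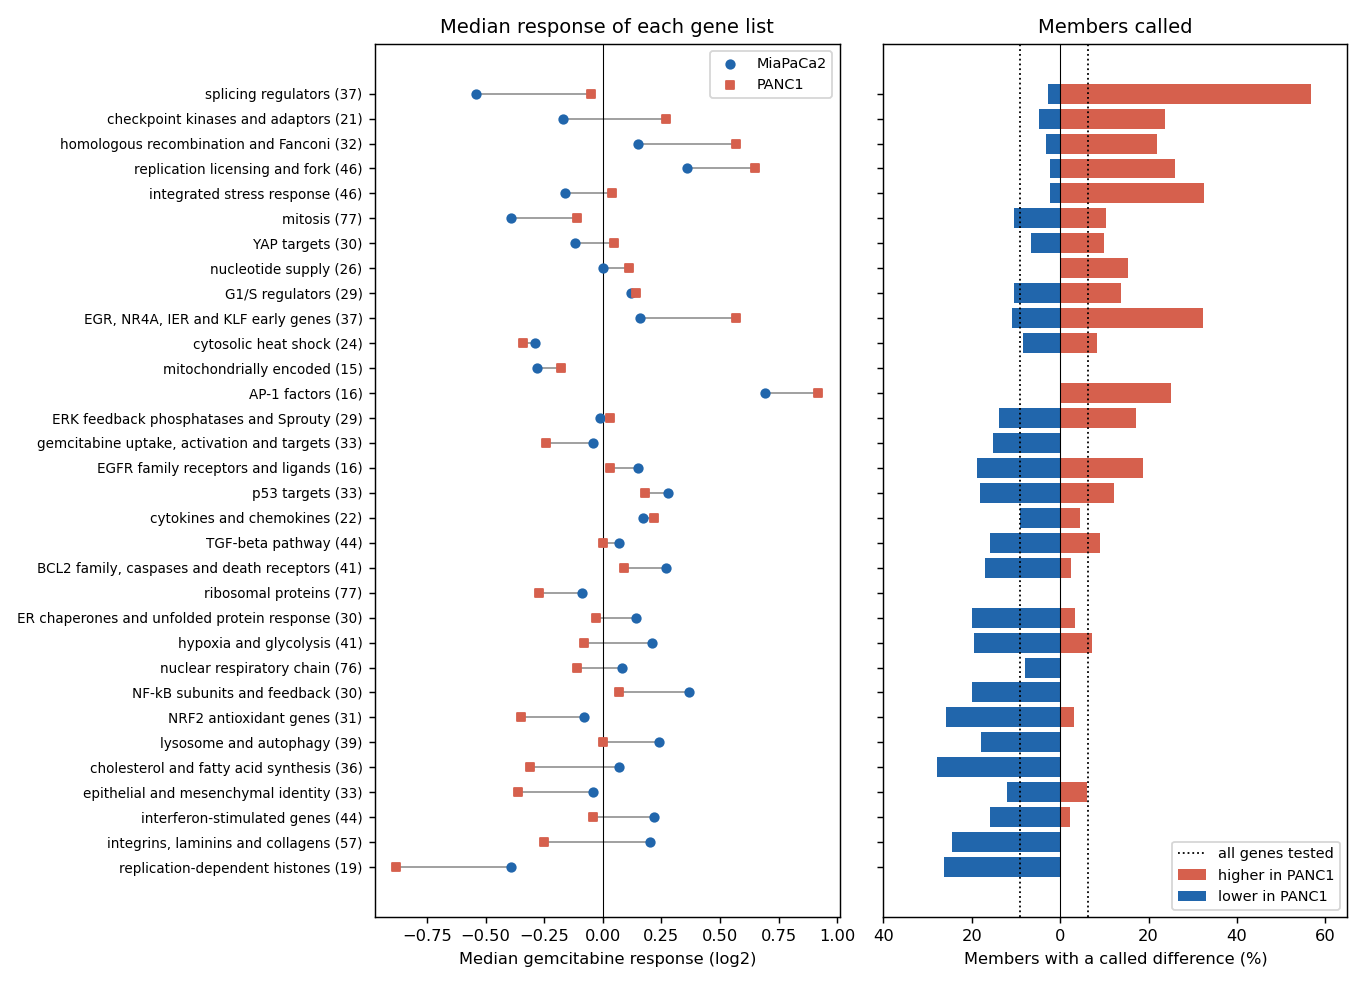
Left, median log2 response to gemcitabine of the tested members of each of 32 gene lists in MiaPaCa2 (blue circles) and PANC1 (red squares), with the number tested in brackets. Right, share of members whose response was called higher (red) or lower (blue) in PANC1, with dotted lines at the shares over all genes, 6.21% and 9.06%; splicing regulators had 21 of 37 higher, and integrins, laminins and collagens 14 of 57 lower.

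Among genes of hypoxia and glycolysis 14 of 41 rose and 6 fell in MiaPaCa2, 4 rose and 9 fell in PANC1, and 8 were lower and 3 higher in PANC1 (15 and 7 after GC correction; 4 lower without any 1 of 4 libraries, PANC1 control 1 among them, and 16 without PANC1 control 2). EPAS1 (chr2:46520806-46613836), encoding HIF-2 alpha, rose from 3.1 and 3.83 to 11.8 and 12.1 CPM in MiaPaCa2 and held 171 and 151 CPM in PANC1 controls and 153 and 141 CPM with the drug. The difference in response was -1.92 ± 0.21 (limma-voom adjusted p = 0.0002), against a far higher level in PANC1 throughout. ALDOC, a glycolytic aldolase, rose from 5.47 and 5.67 to 17 and 18.9 CPM in MiaPaCa2 and was at 5.42 and 4.82 CPM in PANC1 controls and 4.21 and 3.93 CPM with gemcitabine. NDRG1, a stress and hypoxia gene, differed by -1.31, whereas VEGFA, the angiogenic growth factor, differed by 0.83 and fell by 0.69 in MiaPaCa2.

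Interferon-stimulated genes rose in MiaPaCa2 more often than in PANC1 by count, 10 against 2 of 44, with 3 falling in each line. The response was lower in PANC1 for 7 and higher for 1 (12 and 2 after GC correction, 4 lower without PANC1 gemcitabine 2 and 13 without PANC1 control 2), with medians of 0.22 and -0.04. OAS3, which senses double-stranded RNA, rose in both lines, from 40.9 and 42.5 to 124.4 and 109.1 CPM in MiaPaCa2 and from 123.0 and 100.96 to 146 and 140 CPM in PANC1, a difference of -1.11 ± 0.16 (limma-voom adjusted p = 0.000885). STAT2, part of the interferon-responsive transcription factor, rose from 42.9 and 46 to 80.1 and 78.6 CPM in MiaPaCa2 and held 46.8 to 55.5 CPM in PANC1. IFI6, an antiviral membrane protein, rose from 13.4 and 15.2 to 35.7 and 37.2 CPM in MiaPaCa2, while PANC1 held 14.7 and 11.8 CPM in controls and 11.2 and 10.4 CPM with gemcitabine, a difference of -1.63 ± 0.30. The exons of IFI6 overlap a same-strand long noncoding unit over 23.1% of their length.

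The upstream sequences of OAS3 (chr12:112938224-112938473, plus strand) and IFI6 (chr1:27672193-27672442, minus strand) in RefSeq on GRCh38.p14 show the letters by which this family is known. The 250 bases before each start are given from the 5′ end, with the core of the interferon-stimulated response element in capitals, which reads GAAA, any 2 bases, GAAA.
OAS3: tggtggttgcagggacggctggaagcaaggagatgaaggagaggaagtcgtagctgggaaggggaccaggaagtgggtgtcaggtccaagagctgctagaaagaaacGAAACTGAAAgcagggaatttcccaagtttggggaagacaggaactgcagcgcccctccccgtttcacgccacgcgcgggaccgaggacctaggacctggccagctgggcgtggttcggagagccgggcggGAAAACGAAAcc
IFI6: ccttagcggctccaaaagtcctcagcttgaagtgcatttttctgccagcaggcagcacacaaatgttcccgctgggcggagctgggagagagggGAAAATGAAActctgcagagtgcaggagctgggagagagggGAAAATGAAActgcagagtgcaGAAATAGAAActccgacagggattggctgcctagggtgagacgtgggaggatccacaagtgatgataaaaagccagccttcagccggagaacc
With both strands searched, these letters stood in 19 of 32 matched promoters of the list (59.4%) and in 3.07% of all 27305 promoters.

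A set of sterol and lipid synthesis genes fell in PANC1. Of 36 tested in the list of cholesterol and fatty acid synthesis, 14 fell and 0 rose in PANC1, and 5 rose and 5 fell in MiaPaCa2. The response was lower in PANC1 for 10 and higher for 0 (18 and 1 after GC correction), and the 10 became 4 without MiaPaCa2 control 1 and 16 without PANC1 control 2. Medians were 0.07 and -0.31, and the median difference of -0.37 was -0.36 after GC correction. TM7SF2, a sterol reductase, rose from 26.3 and 26.7 to 72.5 and 69.1 CPM in MiaPaCa2 and was at 35.5 and 28.9 CPM in PANC1 controls and 26.4 and 24 CPM with the drug, a difference of -1.76 ± 0.24 (limma-voom adjusted p = 0.000756). ACAT2, which joins acetyl units at the start of the pathway, rose from 107.3 and 103.3 to 170 and 187 CPM in MiaPaCa2 and went from 152 and 136 to 121 and 129 CPM in PANC1. Its difference was -0.96 ± 0.12, and 17.2% of its exon length overlaps TCP1 on the other strand.

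Antioxidant genes of the NRF2 pathway also fell in PANC1, where 16 of 31 fell and 0 rose, against 6 falling and 6 rising in MiaPaCa2. The response was lower for 8 and higher for 1 (9 and 2 after GC correction, 3 lower without MiaPaCa2 control 1 or PANC1 gemcitabine 2 and 15 without PANC1 control 2). PIR, an iron-binding nuclear protein, rose from 49.1 and 45 to 60.9 and 69.7 CPM in MiaPaCa2 and fell from 80 and 77.3 to 55.9 and 57.8 CPM in PANC1, a difference of -0.93 ± 0.14. EPHX1, an epoxide hydrolase, differed by -0.90 and GSR, glutathione reductase, by -0.73. Lysosome and autophagy genes had 14 of 39 rising and 0 falling in MiaPaCa2, 4 rising and 7 falling in PANC1, and 7 lower and 0 higher (13 and 1 after GC correction, 4 lower without either second gemcitabine-treated library or MiaPaCa2 control 2, and 18 without PANC1 control 2). The protease CTSB differed by -0.82 and CTSL by -0.63.

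More responses were lower than higher in PANC1 among genes of cell death and NF-kB signalling, as among all genes tested (9.06% lower, 6.21% higher). After GC correction the lower and higher counts of the BCL2 and NF-kB lists lay closer together. Whether these lists differed from all genes was not tested. In the list of the BCL2 family, caspases and death receptors 7 of 41 were lower and 1 higher in PANC1 (9 and 6 after GC correction, 1 lower without either MiaPaCa2 control and 12 without PANC1 control 2). BCL2L11, the BH3-only protein BIM, went in opposite directions, from 22.4 in both controls to 39.3 and 41.8 CPM in MiaPaCa2 and from 53.2 and 50.9 to 37.7 and 41 CPM in PANC1, a difference of -1.25 ± 0.14 (limma-voom adjusted p = 0.000199). After treatment the lines were thus at about one level. Among NF-kB subunits and feedback genes 6 of 30 were lower and 0 higher (7 and 5 after GC correction, 3 lower without any 1 of 6 libraries and 11 without PANC1 control 2). The list median of -0.29 was 0.00 after GC correction. CD83 and TNFAIP2, which NF-kB induces, differed by -1.35 and -1.30. Of 22 cytokines and chemokines, 2 were lower and 1 higher (5 and 1 after GC correction, 1 lower without MiaPaCa2 control 1), among them the growth factor of macrophages CSF1 at -1.15.

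Without GC correction, the called shares in the remaining lists lay near or under those of all genes, 6.21% higher and 9.06% lower. Some lists above lay near them too. Cytokines and chemokines were at 4.5% higher and 9.1% lower, and epithelial and mesenchymal identity at 6.1% and 12.1%. YAP targets were at 10.0% and 6.7%, and mitosis at 10.4% and 10.4%. Of 24 cytosolic heat shock genes 2 were higher and 2 lower (4 and 4 after GC correction, 0 and 0 without MiaPaCa2 control 1), although 12 fell in each line. Of 76 nuclear respiratory chain genes 6 were lower and 0 higher (16 and 1 after GC correction, 0 lower without MiaPaCa2 control 1 and 24 without PANC1 control 2). Their median difference was -0.27, against -0.08 for all genes, and 66 of the 76 values were negative. Of 77 ribosomal protein genes and 15 mitochondrially encoded genes 0 differed by limma-voom, 5 and 2 did after GC correction, and 19 ribosomal protein genes were lower without PANC1 control 2.

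Of the genes for gemcitabine's activating kinase and nucleotide synthesis targets, RRM1, RRM2, TYMS and DCK were chosen for naming, and the differences of these 4 did not pass the test. RRM1 and RRM2, the subunits of ribonucleotide reductase, rose in both lines. RRM2 went from 549 and 536 to 864 and 928 CPM in MiaPaCa2 and from 547 and 554 to 937 and 1027 CPM in PANC1. RRM1 went from 222 and 205 to 313 and 341 CPM and from 271 and 308 to 478 and 534 CPM. The differences were 0.11 ± 0.09 and 0.19 ± 0.15 on the log2 scale (limma-voom adjusted p = 0.441 and 0.414). TYMS, thymidylate synthase, held 344 to 379 CPM in all 8 libraries, with a difference of 0.05 ± 0.10, and 39.9% of its exon length overlaps ENOSF1 on the other strand. DCK, the kinase that activates the drug, rose in PANC1 from 24.6 and 35.2 to 40.9 and 49.3 CPM and was at 20.2 and 19.3 CPM in MiaPaCa2 controls against 23 and 24.3 CPM with gemcitabine, and its difference of 0.33 ± 0.25 did not pass the test. In this list of uptake, activation and targets 5 of 33 were lower and 0 higher (5 and 6 after GC correction, 1 lower without any 1 of 4 libraries and 9 without PANC1 control 2). SLC29A4, a plasma membrane monoamine and nucleoside transporter, rose in MiaPaCa2 from 23 and 26.4 to 60.8 and 51.5 CPM, with 51.7 and 35.1 CPM in PANC1 controls and 31.4 and 25 CPM with the drug, a difference of -1.77 ± 0.34.

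Of the genes that the study itself discusses, 28 of 30 were tested, and 14 differed, 4 higher and 10 lower in PANC1 (6 and 9 after GC correction). That list was drawn up on these samples and is no independent evidence of a direction. TNF and MUC4 did not pass the filter. VDR, the vitamin D receptor, rose in both lines, from 2.98 and 3.29 to 15.6 and 14.4 CPM in MiaPaCa2 and from 10 and 9.57 to 15.2 and 14.9 CPM in PANC1, so that the treated libraries of the lines overlapped. Its difference was -1.63 ± 0.19 (limma-voom adjusted p = 0.000323). GRK5, a receptor kinase, rose in MiaPaCa2 and fell in PANC1, from 9.06 and 7.51 to 12.6 and 12.7 CPM and from 80.4 and 68.1 to 51.8 and 48 CPM. AKT1 differed by -0.91 ± 0.20, or -0.43 after GC correction, and was not called without MiaPaCa2 control 1 (-0.83) or PANC1 gemcitabine 2 (-0.78). NR4A1, NFKB2 and RELB rose in both lines and their differences of -0.95 ± 0.44, -0.55 ± 0.20 and -0.54 ± 0.38 did not pass the test. MUC1, at 0.47 ± 0.21, was not called but was at 0.78 and called after GC correction.

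Some of the largest differences lay outside the lists. SH2D5, an adaptor with an SH2 domain, rose in PANC1 from 17.6 and 14.4 to 85.6 and 70.8 CPM, with 9.79 and 10.8 CPM in MiaPaCa2 controls and 7.31 and 6.6 CPM with the drug, a difference of 2.85 ± 0.28. RASD1, a small GTPase, had 3 and 0 counts in the MiaPaCa2 controls and 41 and 52 with gemcitabine, a ratio of 28.2 with an exact 95% interval of 9.35 to 139 for counting error, and held 9.43 and 6.79 CPM in PANC1 controls and 7.67 and 5.96 CPM with the drug. FAM46C, a poly(A) polymerase now called TENT5C, rose from 2.8 and 3.14 to 15.4 and 19.2 CPM in MiaPaCa2 and fell from 51.4 and 49.7 to 31 and 34.5 CPM in PANC1, a difference of -3.15 ± 0.21 (limma-voom adjusted p = 7.73e-06). SEMA3F, a secreted semaphorin, rose from 2.92 and 4.21 to 14.8 and 13.6 CPM in MiaPaCa2 and fell from 70.6 and 53.2 to 31.1 and 26.1 CPM in PANC1. CACNA1G, a T-type calcium channel, went from 1.76 and 1.3 to 9.97 and 7.61 CPM and from 21.2 and 16.3 to 11.4 and 10.2 CPM. In all 3 of these opposite changes the lines stood closer to each other with gemcitabine than without it. Under the expression and overlap limits for named genes, the 12 highest differences also held pseudogenes and unnamed loci with few counts. Among them were CTD-2083E4.5, at 0 to 13 counts a library, and BMS1P8.

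The difference between the lines was measured again in the 8 libraries with genistein, as gemcitabine plus genistein minus genistein alone, which share no library with the comparison above. There 1572 genes were called (8.80%), 563 higher (3.15%) and 1009 lower (5.65%). Of the 2728 genes, 2662 (97.6%) had the same sign in those libraries, against 67.6% of the genes not called, and 1079 were called with the same sign, which is 39.6% of the first set and 68.6% of the second. A single gene was called with the other sign. Over the 17863 genes the Spearman correlation of the differences was 0.55, and 0.58 after GC correction, a description across genes that are not independent and whose libraries share a line. KLF6 differed by 1.55, SGK1 by 2.72, EGR1 by 3.47, BTG2 by 2.93, DDIT3 by 1.75, CDKN1A by -2.20, TGFA by -3.10, FN1 by -2.86 and EPAS1 by -1.69 with genistein, each called. Among list medians with genistein, splicing regulators were at 0.39, integrins, laminins and collagens at -0.34, cholesterol and fatty acid synthesis at -0.34 and interferon-stimulated genes at -0.41. Other lists did not keep their median. NF-kB subunits and feedback genes went from -0.29 to 0.01, with 3 members called higher and 3 lower, and the BCL2 family, caspases and death receptors from -0.13 to 0.00, with 0 higher and 4 lower. G1/S regulators went from 0.14 to -0.04 and the integrated stress response from 0.29 to 0.04, each with 2 members called higher and 3 lower. Mitochondrially encoded genes went from 0.03 to -0.51, with 6 of 15 called lower. Mitosis went from 0.26 to 0.07, with 0 higher and 5 lower. The genes called above in replication, in homologous recombination and the Fanconi pathway and among checkpoint kinases all kept their sign, 13, 8 and 6 of them. Of these, 2, 0 and 1 were called again with genistein, against 39.6% over all genes called. A test of whether genistein changed the difference between the lines called 0 genes by limma-voom, with 826 (4.6%) at an unadjusted p under 0.05, 0 by edgeR, 4 by DESeq2 and 6 after GC correction.

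**Figure D5:**
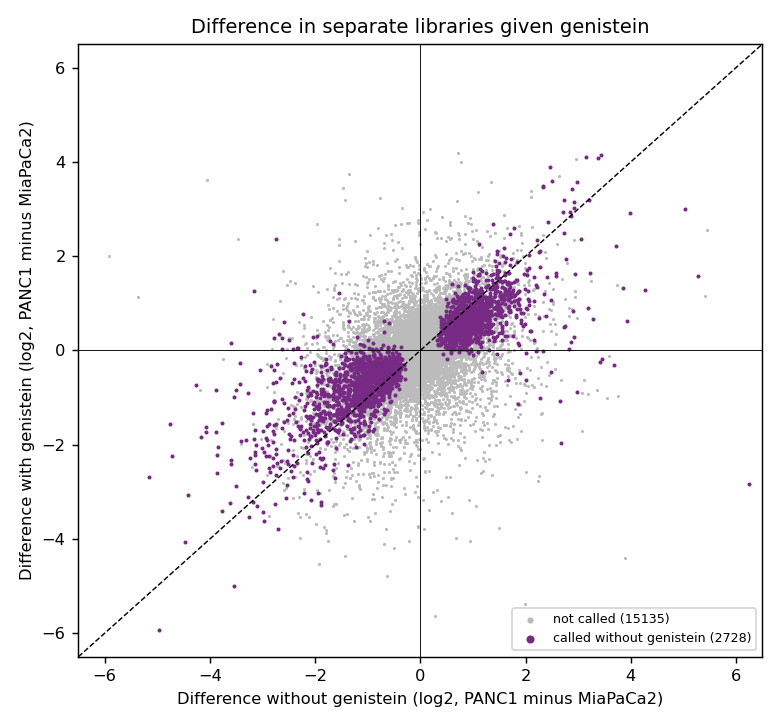
Log2 difference of the gemcitabine response, PANC1 minus MiaPaCa2, without genistein (horizontal axis) and in the separate libraries with genistein (vertical axis) for the 17863 genes tested; purple points are the 2728 genes called without genistein, and the dashed line marks equal differences. Of the purple points 2662 lie in the quadrants of equal sign.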

How the data were processed

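Polyadenylated RNA was prepared from both lines with a stranded kit and sequenced as single reads. Per the labels and the study's methods, the authors aligned reads to GRCh37 with TopHat2 2.0.4, removed reads with several alignments with Picard 1.29 and counted whole reads per gene with HTSeq 0.6.1, so the deposited counts are not normalized. Whether counting used strand is not given in the sources used here. The authors' FPKM values, from Cufflinks 2.1.1, were deposited too and served the expression limit for named genes and 1 alternative.

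Counts of all 16 libraries (8 groups of 2) were filtered with filterByExpr, TMM-scaled and fitted with limma-voom (limma 3.58.1, edgeR 4.0.16, R 4.3.3) with a mean per group, and the contrast was the difference of differences, with Benjamini-Hochberg adjustment over 17863 genes. DESeq2 1.42.0 and edgeR were alternatives. Transcript GC content came from GENCODE models on GRCh37, and the correction subtracted a loess fit of span 0.3 per library. Named genes were the 12 highest and 12 lowest differences (FPKM above 1 in each line, libraries not overlapping), 10 opposite genes, up to 4 members per list with the smallest p, genes the study names, and RRM1, RRM2, TYMS and DCK. The 32 lists are those of the plot of list medians, beside 5 lists of cell type markers. The comparison, lists and named genes were chosen with earlier results of these data known. No source says what a replicate number shares across groups, so libraries were not paired.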

Additional observations from a re-analysis of the deposited data

Results flagged for a closer look

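The gemcitabine responses of PANC1 and MiaPaCa2 differed by a test of the difference itself in 2728 genes, and the 10 genes with the largest opposite changes in the lines were looked at in their counts. LFNG, a glycosyltransferase that modifies Notch, differed by -3.40, with 79 and 49 counts in the MiaPaCa2 controls and 305 and 274 with gemcitabine, and 1051 and 1263 in the PANC1 controls and 357 and 342 with gemcitabine. TJP3, a tight junction protein, differed by -3.84, and held 31 and 23 against 164 and 124 counts in MiaPaCa2 and 15 and 22 against 3 and 6 counts in PANC1. ADAMTS4, a matrix protease, differed by -3.18 and TTLL6, a tubulin-modifying enzyme, by -2.94, with 4 to 12 counts a library in treated PANC1 between them. EXTL1 differed by -4.42 on 1 to 19 counts a library and AC142528.1 by -3.59 on 2 to 17. AC098824.6 differed by 3.28 on 2 to 28 counts and the pseudogene ZSCAN12P1 by 5.03 on 0 to 38, and ZSCAN12P1 lies wholly within another unit on the same strand. RAB37, at -4.07, had 0 counts in both MiaPaCa2 controls and 3 in each treated library, and PKNOX2, at 3.22, had 0 in both PANC1 controls and 1 in each treated library, so these 2 fitted values depend on the prior count and are no measure of a fold. The 10 were chosen from these same libraries for their opposite changes, so fits that left out 1 library are no independent check on them.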

How the results depend on the processing

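The number of genes with a different response, 2728, was 1571 with a replicate block within the lines, 4768 after GC correction, 4201 after GC correction with the replicate block, 1632 on log2(FPKM + 1), 820 at an adjusted p of at most 0.01, and 898 to 5434 when each library was left out in turn. Of these, 584, 2202 and 1944 were higher in PANC1 under the block, the GC correction and both, 703 without a filter on low counts, and 379 to 2249 with libraries left out. Lower in PANC1 were 987 under the block, 2566 after GC correction, 812 on log2(FPKM + 1), and 519 to 3185 with libraries left out. With genistein present, the 1572 genes became 984 under the block, 4253 after GC correction and 3769 under both. In a fit of only the 8 libraries compared, added after seeing the data, the replicate block gave 5520 genes (2542 higher and 2978 lower) with same-numbered pairs and 6269 (2858 and 3411) with crossed pairs in MiaPaCa2. Deviations of same-numbered control and treated libraries correlated at -0.224 in MiaPaCa2 and 0.701 in PANC1 (-0.0199 and 0.273 after GC correction), and at -0.601 and -0.249 in the libraries with genistein, so the numbers went together in PANC1 without genistein but not throughout. The share of higher calls was 40.7%, with 820 higher and 812 lower on log2(FPKM + 1), and 1222 and 1369 where library size alone scaled the counts, which moved the median difference of all genes by 0.1. DESeq2 gave 3281 genes, edgeR 2820 and the 8 libraries alone 2146. Of 155 named genes that were called, 134 kept their call under the block, 148 after GC correction, 151 by edgeR, 98 to 155 with libraries left out and 95 on log2(FPKM + 1), where 58 lost it and RPL29P30 turned to -0.14 and ITPR1 to 0.05. The cause was not tested. With 2 libraries a group, differences well under 1 on the log2 scale in genes of few counts were hard to detect.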
